A study of Mus musculus with 8 samples.

Results

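The BCL2 family sets whether a cell commits to mitochondrial apoptosis, and RNA of 10 of its genes was followed across 8 libraries of mouse pluripotent stem cells. The 10 genes were Bax, Bak1, Bid, Bcl2, Bcl2l1, Bcl2l11, Mcl1, Bbc3, Bmf and Bik. They were chosen by symbol, and all 10 were found, among 21959 named genes or joined gene entries listed, of which 11869 entered the tests. All 10 were at or above 1 FPKM in at least 2 libraries, the condition for testing. FPKM counts sequenced fragments per length of transcript and per fragment mapped in the library. Levels of different genes can be compared on it only as far as the length used for each is right.

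The 8 libraries fell into 4 groups of 2. Dnd1-KD were E14tg2a embryonic stem (ES) cells, labelled wild type and of 129/Ola origin, in which Dnd1 had been knocked down. CDGC1 and CDGC6 were lines of pluripotent cells grown out of early teratoma cells in the testis of new-born Dnd1ter/ter mice, which carried the Oct4deltaPE-GFP reporter on a 129Sv background. The control was E14tg2a without the knockdown. ES cells were at passages 10 to 12 and the derived lines at passages 15 to 18, and all cells shared a medium with serum and LIF. Each derived group is 1 line, so line and genotype cannot be told apart, and the derived lines differ from the control in genotype, strain, derivation and passage at once. The labels do not say whether both libraries of a group were separate cultures, so p-values measure only a spread that may be technical.

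In this pathway the effectors BAX and BAK1 open the outer mitochondrial membrane and release cytochrome c, which starts caspase activation. BCL2, BCL-XL (from Bcl2l1) and MCL1 hold the effectors back, and BH3-only proteins such as BIM (from Bcl2l11), PUMA (from Bbc3), BID, BMF and BIK relieve that restraint or engage the effectors themselves. Mouse germ cells that lack DND1, a germline protein that binds RNA, are known to die by a route that needs BAX, while on 129 backgrounds some survive as testicular teratomas. Pluripotent stem cells are known for a low threshold to mitochondrial apoptosis and a strong need for MCL1.

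The tables could not check the knockdown. Dnd1 was joined with Hars into 1 entry of 57.6 and 53.9 FPKM in the Dnd1-KD libraries, and the other 6 libraries list it at 0. The group is named by its label below. Fragments implied by the files' own intervals came to 10.7 M to 18.0 M per library. Behind a single value of the 10 genes they ranged from 12.1 to 13580, and intervals cover counting error only. The pluripotency markers Pou5f1, Sox2, Nanog and Sall4 were present throughout, and Zfp42 and Esrrb outside CDGC1. In CDGC1 Zfp42 was at 0.0220 and 0 FPKM and Esrrb at 0.211 and 0.140 FPKM. In control they were at 335 and 352 FPKM and at 78.6 and 82.9 FPKM. The 6 genes, with Pou5f1 the highest, summed to 861 to 1059 FPKM in Dnd1-KD, 1209 to 1268 FPKM in CDGC1, 1717 to 2055 FPKM in CDGC6 and 1706 to 1717 FPKM in control. Only 4 of these 6 genes were at or above 1 FPKM in both CDGC1 libraries. Fibroblast or feeder genes (6 of 6 tested, none at 0) summed to 9.93 to 10.2 FPKM in Dnd1-KD, 33.2 to 34.97 FPKM in CDGC1, 24.1 to 32.0 FPKM in CDGC6 and 6.87 to 7.51 FPKM in control. The germ cell genes Ddx4, Dazl, Nanos3 and Mael summed to 30.7 to 33.3 FPKM in Dnd1-KD, 2.07 to 2.32 FPKM in CDGC1, 19.9 to 23.5 FPKM in CDGC6 and 28.8 to 29.8 FPKM in control. Mael was at 0 in both CDGC1 libraries. Of 5 leukocyte genes 2 were tested, and the 5 summed to 25.2 to 25.3 FPKM in Dnd1-KD, 2.77 to 4.23 FPKM in CDGC1, 15.9 to 20.1 FPKM in CDGC6 and 27.5 to 32.1 FPKM in control, nearly all of it Laptm5 and Coro1a, while Ptprc was at most 0.0432 FPKM and Tyrobp was listed at 0 in 7 libraries. Of 4 endothelial genes 3 were tested, and the 4 summed to 22.3 to 25.5 FPKM in Dnd1-KD, 0.920 to 1.87 FPKM in CDGC1, 7.99 to 10.03 FPKM in CDGC6 and 13.1 to 13.6 FPKM in control, with Pecam1 the highest of them outside CDGC1 and Cdh5 at most 0.260 FPKM. Of 5 testis somatic genes 1 was tested, and the 5 summed to 0.921 to 1.02 FPKM in Dnd1-KD, 2.54 to 3.79 FPKM in CDGC1, 0.461 to 1.84 FPKM in CDGC6 and 0.721 to 0.806 FPKM in control. What part these shifts had in the differences below was not tested. In bulk RNA, fewer cells of a type and less RNA per cell cannot be told apart.

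The stretches before 4 genes that the results turn on are shown first. Bax and Mcl1 are the most abundant effector and anti-apoptotic gene among the 10, and Bcl2 and Bbc3 stood on opposite sides of control in CDGC1. RefSeq starts (build GRCm38.p6) were matched for 9 of the 10 genes, with 16 starts in all. Bik was not matched. Each sequence is the 250 bases before a start, written 5′ to 3′ on the gene's strand, with matches on either strand in capitals to CACGTG (an E-box), TGACG (the core of a cAMP response element), CCAAT and GGGCGG (a GC box). The stretches are chr7:45466899-45467148 for Bax (minus strand), chr3:95658471-95658720 for Mcl1 (plus strand), chr1:106714291-106714540 for Bcl2 (minus strand) and chr7:16309333-16309582 for the most upstream of the Bbc3 starts (plus strand), which lies inside the gene's annotated span.
Bax: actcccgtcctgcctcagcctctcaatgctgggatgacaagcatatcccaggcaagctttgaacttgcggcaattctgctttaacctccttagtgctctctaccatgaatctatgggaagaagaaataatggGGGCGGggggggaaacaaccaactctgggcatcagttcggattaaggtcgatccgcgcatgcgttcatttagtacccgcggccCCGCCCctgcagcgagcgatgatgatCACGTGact
Mcl1: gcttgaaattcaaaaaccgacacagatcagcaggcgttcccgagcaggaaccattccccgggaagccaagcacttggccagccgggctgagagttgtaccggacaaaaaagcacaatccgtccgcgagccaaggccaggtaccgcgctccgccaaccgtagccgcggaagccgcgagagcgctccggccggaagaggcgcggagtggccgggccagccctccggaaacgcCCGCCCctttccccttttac
Bcl2: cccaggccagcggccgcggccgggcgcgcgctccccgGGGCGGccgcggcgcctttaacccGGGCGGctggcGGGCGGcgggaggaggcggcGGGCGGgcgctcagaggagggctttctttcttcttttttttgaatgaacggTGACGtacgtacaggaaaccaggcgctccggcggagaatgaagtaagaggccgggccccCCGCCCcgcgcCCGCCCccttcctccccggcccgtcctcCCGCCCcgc
Bbc3: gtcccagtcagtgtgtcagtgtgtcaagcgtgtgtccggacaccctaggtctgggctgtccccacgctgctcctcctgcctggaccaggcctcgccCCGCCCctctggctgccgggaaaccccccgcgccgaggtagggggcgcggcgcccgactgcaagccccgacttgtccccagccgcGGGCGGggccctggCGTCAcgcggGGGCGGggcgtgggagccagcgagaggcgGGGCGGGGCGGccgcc

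The Bax stretch held 1 CACGTG, 9 bases before the start, and 2 GC boxes. Over all 32817 promoters of the same length, 6.02% held CACGTG and 32.7% held GGGCGG. Mcl1 had 1 GC box, Bcl2 had 7 and the Bbc3 stretch shown had 5, of which 2 share a base. Bcl2 and this Bbc3 stretch also had 1 TGACG each, a motif in 17.8% of all promoters. CCAAT, found in 33.8% of all promoters, was not among the letters of these 4 stretches. The other Bbc3 starts differed from the one shown. The stretch chr7:16310011-16310260 had 1 GC box and no TGACG. The stretch chr7:16310181-16310430 had 7 GC boxes, 1 CACGTG 64 bases before the start, 1 CCAAT and no TGACG. G and C made up 54% of the Bax stretch, 64.4% of Mcl1, 74.8% of Bcl2 and 76.4% of Bbc3. The full p53 element was searched by its consensus and had no match in any of the 16 stretches, against 0.0640% of all promoters. These are matches of letters only, and binding was not measured. In a check of the starts, the bases just after them were sought in annotated transcripts of the gene. They were not found there for Mcl1 and Bbc3, and were found for the other genes.

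The effectors moved in opposite directions in CDGC1. Bax, on chromosome 7 at 45461697 to 45466898 (minus strand; mm10 here and for each gene below), was at 292 and 304 FPKM in Dnd1-KD, 210.3 and 216 FPKM in CDGC1, 264 and 309.6 FPKM in CDGC6, and 312 and 332 FPKM in control. The CDGC1 libraries were the lowest of all 8, and no other group overlapped them. Bax fell in CDGC1 by 0.59 ± 0.09 (SE) on the log2(FPKM + 1) scale against control, or to 0.662 of the control FPKM (limma, Benjamini-Hochberg adjusted p = 0.00221). The value lay 0.42 ± 0.09 below that of CDGC6 (adjusted p = 0.00937). In Dnd1-KD the difference from control was −0.11, with a 95% interval from −0.33 to 0.10 (adjusted p = 0.367), and in CDGC6 it was −0.17, with an interval from −0.38 to 0.04 (adjusted p = 0.221). Unnamed assembled entries that overlap Bax were left out of these values. They were listed at 207 and 54.1 FPKM in CDGC1, 332 FPKM in CDGC6 replicate 2 and 2860 FPKM in control replicate 1, and their part in the difference was not tested. Gm45808, which shares exon sequence with Bax on the same strand, was not analysed here.

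Bak1, on chromosome 17 at 27019810 to 27029009 (minus strand), was at 26.3 and 18.3 FPKM in Dnd1-KD, 69.1 and 67.2 FPKM in CDGC1, 33.1 and 35.8 FPKM in CDGC6, and 27.3 and 25.3 FPKM in control. Both CDGC1 libraries stood well above the other 6. Bak1 rose in CDGC1 by 1.34 ± 0.16 against control (2.59 times the FPKM; adjusted p = 0.000892), and was 0.96 ± 0.16 above CDGC6 (adjusted p = 0.00379). Both CDGC6 libraries also lay above both control libraries, by 0.38 (interval −0.01 to 0.76), which did not pass (adjusted p = 0.146) but did without either Dnd1-KD library (0.0359 and 0.0355). Dnd1-KD was at −0.25 against control (interval −0.64 to 0.14; adjusted p = 0.266). There the replicates differed 1.44-fold, with intervals that did not overlap, and the files gave the first as an assembled entry and the second as an annotated one. Leaving out the first made the difference −0.50 (adjusted p = 0.0215), and leaving out the second made it 0.00091. Exons of Bak1 overlap those of Ggnbp1 on the other strand, and the library kit does not mark strand, so reads there cannot be told apart. Ggnbp1 was at 0.355 and 1.05 FPKM in CDGC1 and at 0 to 6.82 FPKM over all libraries.

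**Figure D1:**
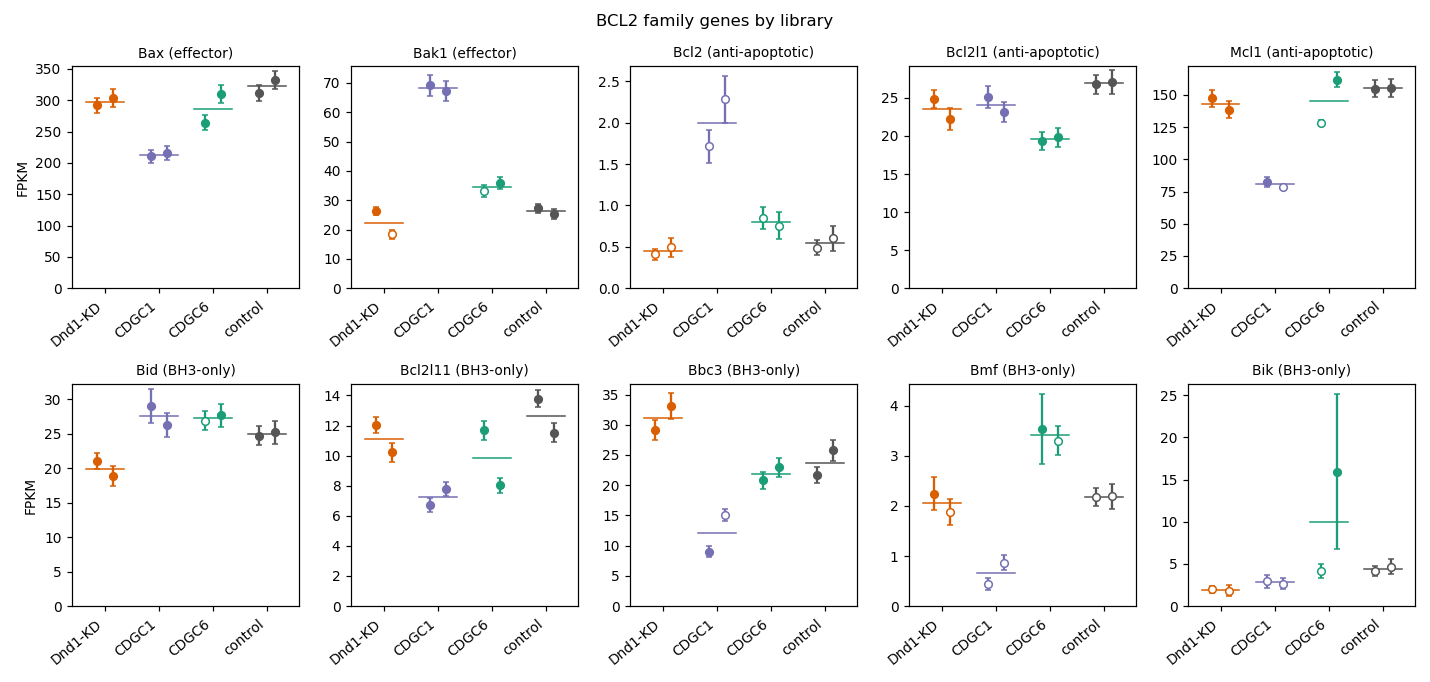
FPKM of the 10 genes in each library, by group; filled points are entries assembled by Cufflinks and open points annotated entries, bars are the files' own 95% intervals, and horizontal lines are group means. CDGC1 stands apart for Bax, Bak1, Bcl2, Mcl1, Bbc3 and Bmf, while the CDGC6 points of Bik are 4.11 and 15.9 FPKM.

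Among the anti-apoptotic genes, Mcl1 carried most of the RNA and, like Bax, fell in CDGC1. Mcl1, on chromosome 3 at 95658788 to 95663176 (plus strand), was at 147 and 139 FPKM in Dnd1-KD, 82.6 and 78.6 FPKM in CDGC1, 128 and 162 FPKM in CDGC6, and 154.9 and 155.1 FPKM in control. Only the CDGC1 libraries were under 100 FPKM. Mcl1 fell in CDGC1 by 0.93 ± 0.11 against control, to 0.520 of its FPKM (adjusted p = 0.000909), and lay 0.83 ± 0.11 below CDGC6 (adjusted p = 0.00172). The difference from control was −0.12 in Dnd1-KD (interval −0.39 to 0.15; adjusted p = 0.453) and −0.11 in CDGC6 (interval −0.38 to 0.17; adjusted p = 0.534). The CDGC6 replicates differed 1.26-fold and lay on either side of control, the lower being an annotated and the higher an assembled entry.

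Bcl2l1, whose long product is BCL-XL, lies on chromosome 2 at 152780668 to 152831728 (minus strand). Its level was 24.9 and 22.2 FPKM in Dnd1-KD, 25.2 and 23.1 FPKM in CDGC1, 19.4 and 19.8 FPKM in CDGC6, and 26.8 and 27.1 FPKM in control. CDGC6 was lowest, and this was the member with the narrowest range, 1.40-fold from lowest to highest library. Bcl2l1 fell in CDGC6 by 0.44 ± 0.08 against control (adjusted p = 0.0183), to 0.728 of its FPKM. That call ended without either control library (0.116 and 0.124) or either CDGC6 library (0.0628 and 0.0578). CDGC1 lay 0.29 ± 0.08 above CDGC6 (adjusted p = 0.0298), a call that ended without CDGC1 replicate 1 (0.104), either CDGC6 library (0.0941 and 0.0766) or either control library (0.0678 and 0.0677), and with only both lines fitted (0.0928). These tables give no split between the long and the short, pro-apoptotic product of Bcl2l1.

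Bcl2 itself was low in every library. On chromosome 1 at 106538178 to 106714274 (minus strand), it was at 0.411 and 0.494 FPKM in Dnd1-KD, 1.71 and 2.29 FPKM in CDGC1, 0.849 and 0.757 FPKM in CDGC6, and 0.490 and 0.604 FPKM in control. It entered the tests only through the CDGC1 libraries, the only ones at or above 1 FPKM, so a higher level there is built into its presence and is given as a description, with no p. On the log2(FPKM + 1) scale Bcl2 in CDGC1 lay 0.95 above control, where the ratio of FPKM was 3.65, and 0.73 above CDGC6. The difference from control was −0.09 in Dnd1-KD (interval −0.37 to 0.19) and 0.22 in CDGC6 (interval −0.06 to 0.50), with adjusted p of 0.581 and 0.226. Without a CDGC1 library Bcl2 left the tests. D630008O14Rik shares exon sequence with Bcl2 on the other strand and was not analysed here.

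Of the 5 BH3-only genes, 3 fell in CDGC1, where 27% of all tested genes fell. Bbc3, which encodes PUMA and is a known p53 target, lies on chromosome 7 at 16308393 to 16318205 (plus strand). It was at 29.1 and 33.1 FPKM in Dnd1-KD, 9.00 and 15.0 FPKM in CDGC1, 20.8 and 23.0 FPKM in CDGC6, and 21.7 and 25.8 FPKM in control. CDGC1 lay below and Dnd1-KD above every other library. Bbc3 fell in CDGC1 by 0.96 ± 0.22 against control (0.507 of its FPKM; adjusted p = 0.0129), which was lost without control replicate 2 (0.0708) and with only the compared groups fitted (0.0534). It lay 0.85 ± 0.22 below CDGC6 (adjusted p = 0.0219), which ended without either CDGC6 library (0.0622 and 0.1003) and with only both lines fitted (0.0575). The CDGC1 replicates differed 1.67-fold, the lower being an assembled and the higher an annotated entry. In Dnd1-KD the difference was 0.38 ± 0.22 (interval −0.16 to 0.92), which did not pass (adjusted p = 0.230).

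Bcl2l11, which encodes BIM, lies on chromosome 2 at 128126038 to 128162547 (plus strand). It was at 12.0 and 10.2 FPKM in Dnd1-KD, 6.73 and 7.78 FPKM in CDGC1, 11.7 and 8.04 FPKM in CDGC6, and 13.8 and 11.5 FPKM in control. The CDGC1 libraries were lowest, with CDGC6 replicate 2 just above them. Bcl2l11 fell in CDGC1 by 0.72 ± 0.19 against control (0.573 of its FPKM; adjusted p = 0.0194), which ended without CDGC1 replicate 1 (0.0839) or control replicate 1 (0.106). Differences from control of −0.17 in Dnd1-KD and −0.35 in CDGC6 did not pass (adjusted p = 0.513 and 0.238). In control replicate 1 alone, 3 unnamed assembled entries that overlap Bcl2l11 were listed, with 8.93 FPKM together. They were left out of these values, and their part in the difference was not tested.

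Bmf, on chromosome 2 at 118528757 to 118549687 (minus strand), was at 2.25 and 1.88 FPKM in Dnd1-KD, 0.436 and 0.869 FPKM in CDGC1, 3.54 and 3.30 FPKM in CDGC6, and 2.18 and 2.20 FPKM in control. The derived lines stood on opposite sides of control with no overlap. Bmf fell in CDGC1 by 0.96 ± 0.14 (0.299 of the control FPKM; adjusted p = 0.00222). In CDGC6 it lay 0.47 ± 0.14 above control (1.57 times the FPKM), which did not pass (adjusted p = 0.0673) but did without CDGC1 replicate 1 or 2 (0.0259 and 0.0260). The lines differed from each other by 1.43 ± 0.14, with CDGC1 lower (adjusted p = 0.000550), the largest difference between them among the 10 genes. Dnd1-KD was at −0.06 against control (interval −0.41 to 0.29).

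Bid was the 1 member to pass in Dnd1-KD, where 36.2% of all tested genes passed. It encodes a protein that caspase-8 cleaves, linking death receptors to mitochondria, and lies on chromosome 6 at 120891930 to 120916853 (minus strand). Its level was 21.0 and 18.9 FPKM in Dnd1-KD, 29.0 and 26.3 FPKM in CDGC1, 26.9 and 27.7 FPKM in CDGC6, and 24.7 and 25.2 FPKM in control. Both Dnd1-KD libraries lay below the other 6. Bid fell in Dnd1-KD by 0.31 ± 0.08 against control, to 0.799 of its FPKM (adjusted p = 0.0302). The call ended without Dnd1-KD replicate 2 (0.143) or either control library (0.131 and 0.147). In CDGC1 and CDGC6 the differences from control were 0.14 and 0.12 (adjusted p = 0.207 and 0.331). Exons of Bid overlap those of Bcl2l13 on the other strand, which was at 9.46 to 12.7 FPKM over all libraries.

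Bik, on chromosome 15 at 83526862 to 83544634 (plus strand), had the widest range. It was at 1.997 and 1.83 FPKM in Dnd1-KD, 2.95 and 2.64 FPKM in CDGC1, 4.11 and 15.9 FPKM in CDGC6, and 4.17 and 4.65 FPKM in control. The value of 15.9 FPKM in CDGC6 replicate 2 rested on about 12.1 implied fragments (the file's interval is 6.76 to 25.1 FPKM) and was the only assembled Bik entry. In the fit of all 8 libraries Bik passed in no comparison with control: the differences were −0.89 ± 0.50 in Dnd1-KD, −0.51 in CDGC1 and 0.78 in CDGC6 (adjusted p = 0.211, 0.432 and 0.308). Without that library, Bik fell in Dnd1-KD by 0.89 (0.434 of the control FPKM; adjusted p = 0.00486) and in CDGC1 by 0.51 (adjusted p = 0.00915), and CDGC6 was at −0.08. With only the compared groups fitted, the same differences in Dnd1-KD and CDGC1 also passed (adjusted p = 0.00638 and 0.0196). Without CDGC6 replicate 1 in its place, Bik was 1.65 higher in CDGC6 (adjusted p = 0.00421), from that library alone.

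More of the 10 genes passed in CDGC1 than in either other group set against control. There 7 of the 10 passed, 2 higher and 5 lower, where 50.5% of all tested genes passed (23.5% higher and 27% lower). With Bcl2 set aside, since it entered the tests through CDGC1, 6 of the other 9 passed. In Dnd1-KD 1 of 10 passed, lower, where 36.2% of all genes did (20.7% higher and 15.5% lower). In CDGC6 1 of 10 passed, lower, where 18.7% did (8.48% higher and 10.2% lower). For the derived lines averaged and set against control, 6 of 10 passed against a background of 38.9% (17.4% higher and 21.5% lower), namely Bak1 and Bcl2 higher and Bax, Mcl1, Bcl2l1 and Bcl2l11 lower, or 5 of 9 with Bcl2 set aside. None of these genes passed against control in both lines. Bcl2l1 passed only in CDGC6, and the others only in CDGC1. For Mcl1 and Bcl2l11, libraries of the lines also overlapped those of control. The count of 6 was 1 without control replicate 1 (Bak1) and 2 without control replicate 2 (Bak1 and Bcl2). Between CDGC1 and CDGC6 7 of 10 passed against a background of 47.2% (23% higher and 24.2% lower in CDGC1), with Bak1, Bcl2 and Bcl2l1 higher and Bax, Mcl1, Bbc3 and Bmf lower in CDGC1, or 6 of 9 with Bcl2 set aside. With only both lines fitted 5 of the 10 passed. The median size of a difference, whatever its sign, was 0.18 over the 10 genes and 0.29 over all genes in Dnd1-KD, 0.83 and 0.39 in CDGC1, 0.28 and 0.22 in CDGC6, and 0.78 and 0.36 between the derived lines. The medians over the 10 genes include Bcl2, at 0.95 in CDGC1 and 0.73 between the lines. Its high level in CDGC1 is built into its presence, and no medians without it are given. These shares and medians describe the genes and were not tested.

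**Figure D2:**
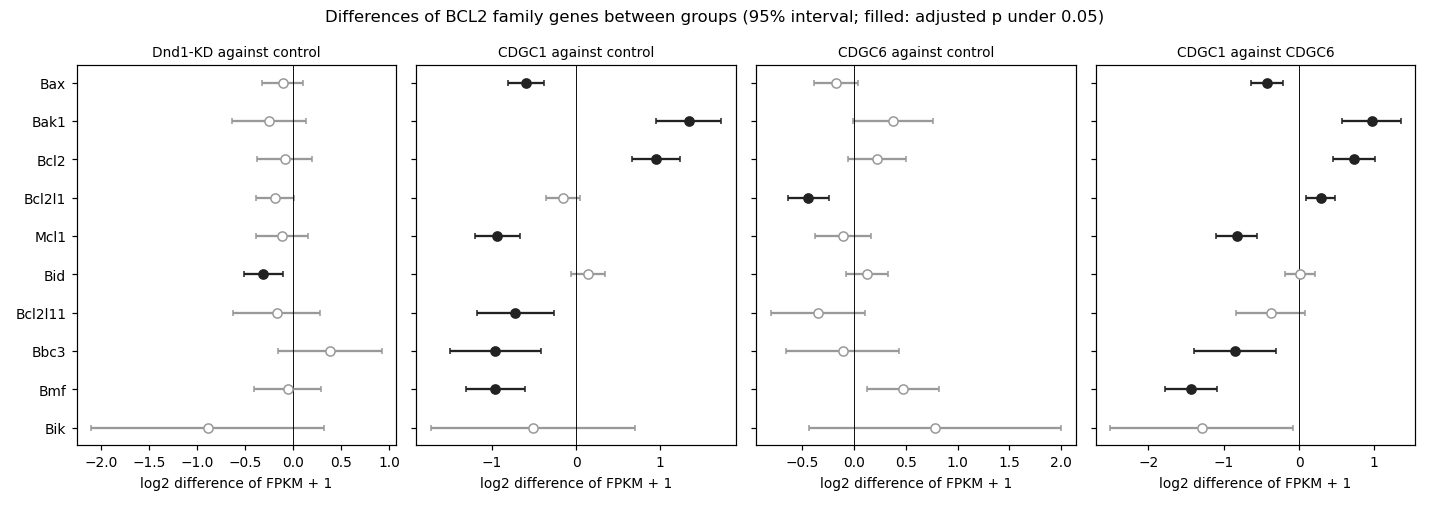
Log2 differences of FPKM + 1 for the 10 genes in 4 comparisons, with 95% intervals; filled points passed at an adjusted p under 0.05. Filled points number 1 in Dnd1-KD, 7 in CDGC1, 1 in CDGC6 and 7 between CDGC1 and CDGC6, those of Bcl2 included, and each panel has its own scale.

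The order of the groups differed between members, and few neighbours in an order were separated. These steps include CDGC1 and CDGC6 against Dnd1-KD, in which 61.6% and 53.7% of all tested genes passed. For Bax it ran from control through Dnd1-KD and CDGC6 to CDGC1, and only the step to CDGC1 passed. For Mcl1 the control, CDGC6 and Dnd1-KD groups were not separated (adjusted p = 0.534 and 0.942), and only the step from Dnd1-KD to CDGC1 passed (adjusted p = 0.00110). Bak1 and Bcl2 shared the order CDGC1, CDGC6, control and Dnd1-KD, and in Bak1 only the step between CDGC1 and CDGC6 passed. In Bid the single separated step was that between control and Dnd1-KD. Bmf ran from CDGC6 through control and Dnd1-KD to CDGC1, where the last step passed (adjusted p = 0.00215). For Bcl2l1 only the step from Dnd1-KD to CDGC6 passed (adjusted p = 0.0407). For Bbc3 only the step from CDGC6 to CDGC1 did (adjusted p = 0.0219). In Bcl2l11 and Bik no neighbouring step passed.

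By level, Bax alone made up 48.1% to 55.3% of the summed FPKM of the 10 genes in every library. Bax and Bak1 together summed to 318 and 322 FPKM in Dnd1-KD, 279 and 283 FPKM in CDGC1, 297 and 345 FPKM in CDGC6, and 339 and 358 FPKM in control. The 3 anti-apoptotic genes summed to 173 and 161 FPKM in Dnd1-KD, 109.5 and 104 FPKM in CDGC1, 148 and 182 FPKM in CDGC6, and 182 and 183 FPKM in control. The ratio of these sums, effectors over anti-apoptotic genes, was 1.84 and 1.996 in Dnd1-KD, 2.55 and 2.72 in CDGC1, 1.9998 and 1.90 in CDGC6, and 1.86 and 1.96 in control. Both CDGC1 libraries lay above the other 6. These sums cover only members of the 10 and leave out Bok and the anti-apoptotic gene Bcl2l2. Bcl2l2 was measured jointly with Pabpn1, so its own level is not known. That joint value was 126 and 122 FPKM in Dnd1-KD, 143 and 228 FPKM in CDGC1, 207 and 281 FPKM in CDGC6, and 166 and 169 FPKM in control. Whether CDGC1 would stand apart in a ratio with Bcl2l2 was not tested. The 5 BH3-only genes among the 10 summed to 66.4 and 65.9 FPKM in Dnd1-KD, 48.1 and 52.6 FPKM in CDGC1, 67.0 and 77.9 FPKM in CDGC6, and 66.5 and 69.3 FPKM in control. Pmaip1, a further BH3-only gene described below, is not in this sum. It was at 44.5 and 41.9 FPKM in CDGC1, 7.63 and 8.12 FPKM in CDGC6, and 18.9 and 19.8 FPKM in control. With Pmaip1 added, CDGC1 would not have the lowest sum. The ratio of Bax to Bak1 was 11.1 and 16.6 in Dnd1-KD, 3.04 and 3.21 in CDGC1, 7.97 and 8.64 in CDGC6, and 11.4 and 13.1 in control. Mcl1 stood 5.91-fold and 6.24-fold above Bcl2l1 in Dnd1-KD, 3.28-fold and 3.40-fold in CDGC1, 6.62-fold and 8.16-fold in CDGC6, and 5.79-fold and 5.73-fold in control. Sums and ratios describe RNA only and were given no test.

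**Figure D3:**
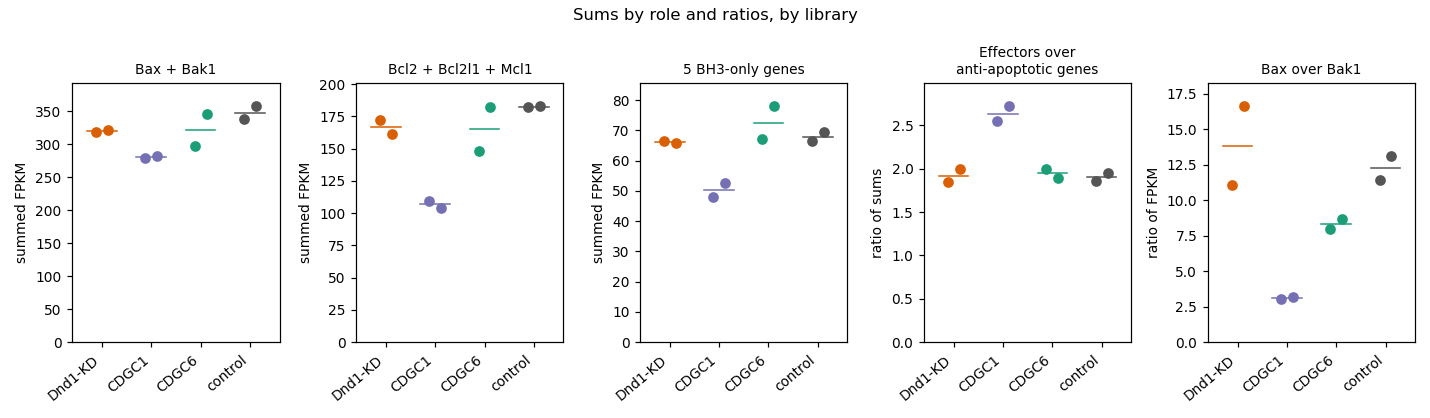
Summed FPKM by role and ratios of FPKM in each library; points are libraries and lines group means, and axes start at 0. Only the 10 genes are summed, and the effector over anti-apoptotic ratio is 2.55 and 2.72 in CDGC1 and between 1.84 and 1.9998 in the other 6 libraries.

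Over the 8 libraries, Pearson's r of log2(FPKM + 1) was 0.97 between Bax and Mcl1, 0.94 between Bak1 and Bcl2 and 0.85 between Bax and Bbc3, against −0.89 between Bax and Bak1 and −0.94 between Bcl2 and Mcl1. CDGC1 stands apart in each of these genes, libraries of a group share their cells, and the values have no p. The genes nearest to Bax in pattern were Ppap2b (r = 0.99), Ppp2r2d (0.99) and Cd34 (0.99). For Mcl1 they were Upk1a, Rinl and Ccdc101 (0.99 each), for Bak1 they were Gamt, Romo1 and Drg1 (0.99 each), and for Bcl2 they were Usp18, Pqbp1 and Lgals3bp (0.99 each).

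Of 15 further BCL2 family genes listed, 8 were tested and the other 7, Hrk and the Bcl2a1 genes among them, were too low. In Dnd1-KD 3 fell and none rose, in CDGC1 2 rose and none fell, and in CDGC6 1 rose and 1 fell, where 36.2%, 50.5% and 18.7% of all tested genes passed. Among the 8, Bcl2l12 was measured jointly with Prmt1 and Bcl2l2 with Pabpn1, so these values may come from the other gene. The joint value of Bcl2l12 and Prmt1 is 1 of the 3 that fell in Dnd1-KD (adjusted p = 0.0406). The Dnd1-KD count of 3 was 1 without either control library, and the CDGC1 count of 2 was 1 without control replicate 1. Pmaip1, which encodes the BH3-only protein NOXA, a partner of MCL1, was at 21.6 and 25.6 FPKM in Dnd1-KD, 44.5 and 41.9 FPKM in CDGC1, 7.63 and 8.12 FPKM in CDGC6, and 18.9 and 19.8 FPKM in control. The derived lines again lay on opposite sides of control. Pmaip1 rose in CDGC1 by 1.12 ± 0.10 (adjusted p = 0.000260) and fell in CDGC6 by 1.20 ± 0.10 (adjusted p = 0.00167), and the lines differed by 2.32 ± 0.10 (adjusted p = 2.42e-05). Bok, a further pore-forming relative, was at 7.90 and 6.76 FPKM in Dnd1-KD, 17.1 and 17.8 FPKM in CDGC1, 12.9 and 13.2 FPKM in CDGC6, and 12.2 and 12.8 FPKM in control. It fell in Dnd1-KD by 0.70 ± 0.09 (adjusted p = 0.00348). Bok rose in CDGC1 by 0.44 ± 0.09 (adjusted p = 0.00798), and this one was lost without control replicate 1 (0.0623). Bnip3, a mitophagy receptor with a BH3-like stretch, was at 15.5 and 13.3 FPKM in Dnd1-KD, 16.9 and 22.7 FPKM in CDGC1, 76.3 and 59.1 FPKM in CDGC6, and 26.8 and 23.2 FPKM in control, and rose in CDGC6 by 1.39 ± 0.19 (adjusted p = 0.00695).

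Of 18 genes in the caspase and apoptosome list, 17 were tested. The list also holds inhibitors of apoptosis, Xiap and Birc5 among them, and the mitochondrial channel genes Vdac1, Vdac2 and Vdac3. In Dnd1-KD 4 rose and 6 fell, in CDGC1 10 rose and 1 fell, and in CDGC6 3 rose and 1 fell. These counts therefore mix genes that promote and genes that oppose cell death. Xiap was among the rises in CDGC1 (0.56 ± 0.09, adjusted p = 0.00289). Of all tested genes, 20.7% rose and 15.5% fell in Dnd1-KD, 23.5% and 27% in CDGC1, and 8.48% and 10.2% in CDGC6. The Dnd1-KD count of 10 was 3 and 2 without control replicates 1 and 2, and 5 and 3 without Dnd1-KD replicates 1 and 2. Without control replicates 1 and 2 the CDGC1 count of 11 was 4 and 6, and the CDGC6 count of 4 was 1 and 2. Apaf1, the scaffold of the apoptosome, was at 21.2 and 22.5 FPKM in Dnd1-KD, 18.8 and 19.0 FPKM in CDGC1, 9.68 and 7.75 FPKM in CDGC6, and 14.0 and 14.1 FPKM in control, and CDGC1 lay 1.04 ± 0.11 above CDGC6 (adjusted p = 0.000609). Its differences from control were 0.60 in Dnd1-KD, 0.40 in CDGC1 and −0.64 in CDGC6 (adjusted p = 0.00890, 0.0216 and 0.0131), and each call was lost without either control library (0.0565 to 0.0983). The Dnd1-KD call was also lost without Dnd1-KD replicate 2 (0.0573), and the CDGC1 call without either CDGC1 library (0.0606 and 0.0641). In Dnd1-KD the falls with the smallest p were those of Birc5, which encodes survivin (−0.59 ± 0.07, adjusted p = 0.00315), and Htra2, a mitochondrial protease (−0.70 ± 0.09, adjusted p = 0.00383).

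Death receptor genes were tested for 9 of 11. In Dnd1-KD 5 rose and none fell, in CDGC1 2 rose and 1 fell, and in CDGC6 1 rose and 2 fell, against 36.2%, 50.5% and 18.7% of all tested genes that passed in these groups. Of the 5 in Dnd1-KD, Fas reached 1 FPKM in 2 libraries only with the help of that group, so 4 of the other 8 rose there. The Dnd1-KD count of 5 was 1 without either control library or Dnd1-KD replicate 2, and 3 without Dnd1-KD replicate 1. The CDGC1 count of 3 was 5 without CDGC1 replicate 2, and the CDGC6 count of 3 was 0 without either control library. Casp8, the initiator that cleaves BID, was at 3.87 and 3.82 FPKM in Dnd1-KD, 10.9 and 11.4 FPKM in CDGC1, 2.20 and 1.92 FPKM in CDGC6, and 2.75 and 2.92 FPKM in control. Only CDGC1 exceeded 10 FPKM, a rise of 1.66 ± 0.09 against control (adjusted p = 4.31e-05). Tnfrsf10b, a TRAIL receptor and known p53 target, was at 33.1 and 37.1 FPKM in Dnd1-KD, 21.4 and 18.7 FPKM in CDGC1, 10.6 and 9.29 FPKM in CDGC6, and 16.5 and 16.5 FPKM in control, and rose in Dnd1-KD by 1.04 ± 0.10 (adjusted p = 0.00186).

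All 12 upstream regulators were tested. In Dnd1-KD 5 rose and 5 fell, in CDGC1 2 rose and 5 fell, and in CDGC6 1 rose and 3 fell, where 36.2%, 50.5% and 18.7% of all tested genes passed. The Dnd1-KD count of 10 was 5 and 4 without control replicates 1 and 2 and 4 without Dnd1-KD replicate 2. The CDGC1 count of 7 was 3 without either control library and 4 without CDGC1 replicate 2, and the CDGC6 count of 4 was 2 without either control library or CDGC6 replicate 2. Mdm2, a ubiquitin ligase for p53 and itself a p53 target, was at 218 and 244 FPKM in Dnd1-KD, 77.6 and 68.0 FPKM in CDGC1, 34.7 and 39.4 FPKM in CDGC6, and 97.9 and 95.5 FPKM in control. It rose in Dnd1-KD by 1.25 ± 0.10 (adjusted p = 0.00111) and fell in CDGC6 by 1.36 ± 0.10 (adjusted p = 0.00118). Foxo3, a transcription factor known to induce Bcl2l11 and Bbc3, was at 28.6 and 30.3 FPKM in Dnd1-KD, 9.96 and 10.7 FPKM in CDGC1, 11.6 and 10.6 FPKM in CDGC6, and 14.7 and 15.4 FPKM in control. It rose in Dnd1-KD by 0.92 ± 0.08 (adjusted p = 0.00148) and fell in CDGC1 by 0.50 ± 0.08 (adjusted p = 0.00317). In CDGC6 it fell by 0.41 ± 0.08 (adjusted p = 0.0228), a call lost without CDGC6 replicate 2 (0.0759) or either control library (0.119 and 0.160). Trp53, which encodes p53, was at 170.0 and 168 FPKM in Dnd1-KD, 213 and 197 FPKM in CDGC1, 188 and 187 FPKM in CDGC6, and 219.5 and 212 FPKM in control, and fell in Dnd1-KD by 0.35 (adjusted p = 0.00847). That call was lost without either control library (0.0746 and 0.0505) or Dnd1-KD replicate 2 (0.0503), and with quantile normalization, which made the difference −0.12 (adjusted p = 0.194). Atf4 was measured jointly with Mief1, and that joint value rose in Dnd1-KD by 0.84, in CDGC1 by 0.93 and in CDGC6 by 1.03 (adjusted p = 0.00148, 0.000177 and 0.00113). Ddit3 was at 135 and 180.5 FPKM in Dnd1-KD and is listed at 0 in the other 6 libraries, where a 0 can be a failed estimate, so no fold is given. It entered the tests only through Dnd1-KD, and with it set aside 4 of the other 11 rose there.

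**Figure D4:**
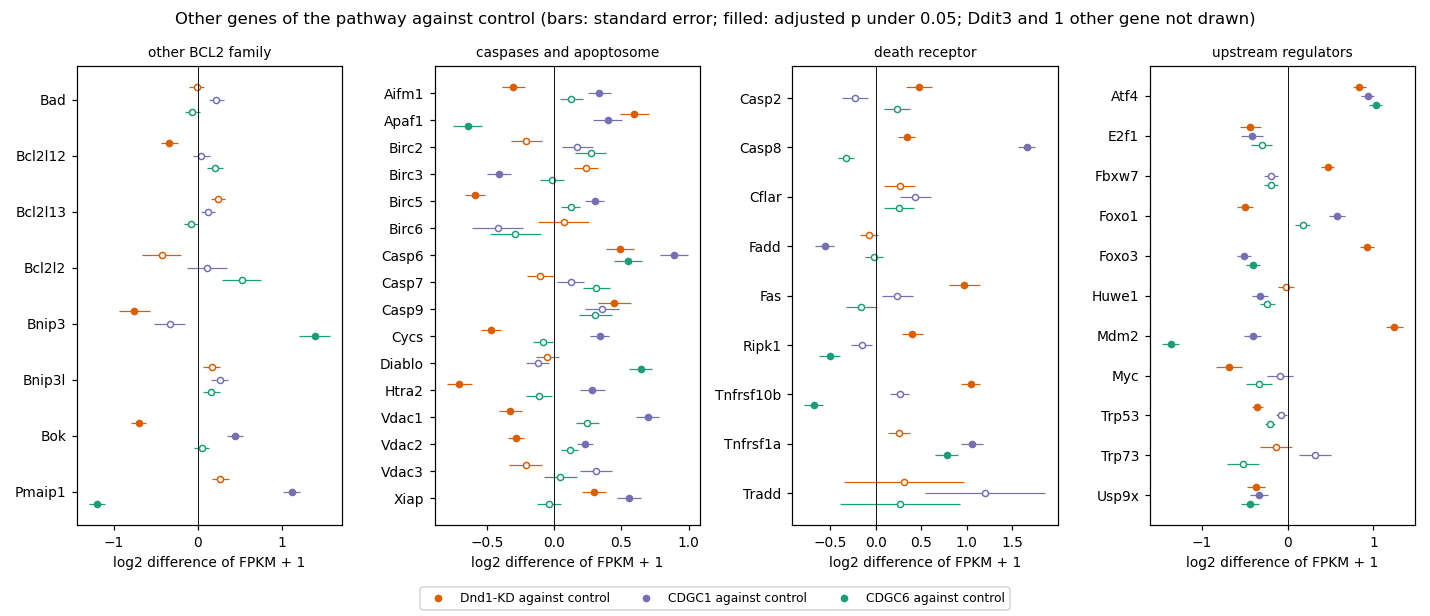
Log2 differences of FPKM + 1 against control for other genes of the pathway, by list, with standard errors; filled points passed at an adjusted p under 0.05. Casp8 reaches 1.66 in CDGC1, Pmaip1 lies at 1.12 in CDGC1 and −1.20 in CDGC6, and Mdm2 at 1.25 in Dnd1-KD and −1.36 in CDGC6; Atf4, Vdac1, Bcl2l12 and Bcl2l2 were each measured jointly with another gene.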

How the data were processed

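RNA was measured in 8 libraries, 2 per group, from total RNA with TruSeq v2 libraries per the labels' protocols, a kit that does not mark strand. The deposited FPKM values stand in 1 Cufflinks gene table per library, each with an interval, per the file headers. Cufflinks, Cuffdiff, TopHat2, Bowtie and mm10 are named in the submitters' processing notes, and versions and roles are not given in the sources used here. The tables hold no read counts, so implied fragments were derived from each FPKM and its interval, and intervals cover counting error only.

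Symbols joined into 1 entry in any library were treated as 1 unit, with FPKM summed over entries, and unnamed entries (76.8% to 85.6% of summed FPKM) and small RNA genes were left out. Of the 80 values of the 10 genes, 53 came from assembled and 27 from annotated entries, with none joined to another symbol and none at 0. The length behind an FPKM may differ between entries of a gene. In CDGC1, Mcl1 was at 82.6 FPKM on 1794 implied fragments (assembled) and at 78.6 FPKM on 8776 (annotated). Over all genes, the median absolute log2 ratio between replicates, where only 1 entry was assembled and elsewhere, was 0.142 and 0.121 in Dnd1-KD, 0.185 and 0.175 in CDGC1, 0.144 and 0.149 in CDGC6, and 0.0638 and 0.0603 in control. Groups came from the labels. Units at or above 1 FPKM in at least 2 of 8 libraries (11869, of which 657 hold several symbols and 636 are at 0 in some library) were tested on log2(FPKM + 1), a scale that understates changes of low genes. In R 4.3.3, limma 3.58.1 fitted the 8 libraries together with 1 mean per group (two-sided, eBayes with trend), with Benjamini-Hochberg adjustment over all units and a threshold of 0.05. Each of Dnd1-KD, CDGC1, CDGC6 and the average of CDGC1 and CDGC6 was set against control, and CDGC1 against CDGC6; steps between neighbours in a gene's order also used CDGC1 and CDGC6 against Dnd1-KD. The comparisons with control share its 2 libraries. The fit was tested on simulated data. Gene positions are from GENCODE (mm10) and promoter sequences from RefSeq (GRCm38.p6). Python 3.11.15 with pandas 2.3.3, numpy 2.4.6 and matplotlib 3.10.9 was used for the rest.

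The 10 genes and the pathway lists were chosen with earlier results of these data known. All 10 were named, with up to 4 genes per list and comparison that had the smallest p among those that passed, and the 3 genes nearest in pattern. A gene of these lists is counted but not reported here by name. Trp53 was added beside its known targets after its values were seen. Alternatives were other pseudocounts, filters and scalings, fits of only the compared groups, with a replicate block or without trend, the highest entry per unit, units of 1 symbol, control averaged, a minimum of 2-fold, and leaving out single libraries.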

Additional observations from a re-analysis of the deposited data

Results flagged for a closer look

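The derived lines CDGC1 and CDGC6 differed from each other in 7 of the 10 genes, each called by the direct comparison of the lines in the limma fit, where 47.2% of all tested genes were called. With only both lines fitted, 5 were called. Bcl2 entered the tests only through CDGC1, so its difference is a description. CDGC1 minus CDGC6 on the log2(FPKM + 1) scale was 0.96 for Bak1, 0.73 for Bcl2 and 0.29 for Bcl2l1, and −0.42 for Bax, −0.83 for Mcl1, −0.85 for Bbc3 and −1.43 for Bmf. Beside these genes, 2 of the wider pathway differed between the lines while each line also differed from control in opposite directions. The differences were 2.32 for Pmaip1 and 1.04 for Apaf1.

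Assembled entries without a gene name overlapped member genes where both control libraries had none. An entry overlapping Bcl2l1 was listed at 3.91 FPKM in CDGC6 replicate 2. Those overlapping Bid were listed at 15.4 FPKM in CDGC1 replicate 2 and at 8.27 FPKM in CDGC6 replicate 1. They were left out of the values of those genes.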

How the results depend on the processing

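Each value was recomputed under up to 21 other settings. Of 1023 such values for the 10 genes, 924 kept their direction and side of the threshold, 64 lost the call, 24 gained one and 11 turned sign. Of 1621 for the wider pathway, 1412 kept both, 204 lost the call, 4 gained one and 1 turned sign. The cause was not tested in any case.

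Of the 10 genes, 1 was called in CDGC6 against control, but 2 with a pseudocount of 5 or quantile normalization and 3 with only the compared groups fitted, which also gave 2 in place of 1 for Dnd1-KD, 5 in place of 6 for the mean and 5 in place of 7 between the lines. With the control libraries averaged as 1 sample it was 0 for Dnd1-KD, 0 for CDGC6 and 2 for the mean of both lines, with 1466, 435 and 2098 called over all genes. A 2-fold minimum, stricter by construction, left 0 for Dnd1-KD, 1 for CDGC1, 0 for CDGC6, 0 for the mean and 1 between the lines, with 549, 1925, 394, 869 and 1655 over all genes. Leaving out each library in turn gave 0 to 2 of the 10 for Dnd1-KD, 5 to 8 for CDGC1, 0 to 2 for CDGC6, 1 to 7 for the mean and 5 to 7 between the lines. Over all genes it gave 1360 to 4909, 4057 to 6007, 410 to 2849, 2059 to 4769 and 4393 to 5536. A lone remaining library was assumed to vary like the other groups. Without a CDGC1 library Bcl2 left the tests, and a filter of 5 FPKM left out Bcl2, Bmf and Bik. Bcl2l11 in the mean of both lines lost its call in 11 of 21 settings.

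Sign changes were confined to values that had not passed. Quantile normalization gave 0.017 for Bax and 0.032 for Mcl1 in Dnd1-KD and −0.023 for Bid between the lines, and a pseudocount of 5 gave 0.033 for Pmaip1 in the mean. Over the left-out libraries, differences ran from −0.50 to 0.00091 for Bak1 in Dnd1-KD, −0.15 to 0.028 for Bmf in Dnd1-KD, −0.27 to 0.061 for Mcl1 in CDGC6, −0.23 to 0.012 for Bbc3 in CDGC6 and −0.080 to 1.65 for Bik in CDGC6. They ran from −0.30 to 0.57 for Bik in the mean and from −0.051 to 0.085 for Bid between the lines.

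The replicate numbers did not pair the libraries: deviations of same-numbered libraries correlated at −0.051 to 0.121. With the replicate number as a block, 1 of the 10 was called for Dnd1-KD, 7 for CDGC1, 1 for CDGC6, 7 for the mean (Bbc3 added, adjusted p = 0.0300) and 7 between the lines, with 3921, 5771, 1684, 4262 and 5356 over all genes.

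Calls in the pathway lists also moved when libraries were left out, from 4 to 11 of the caspase and apoptosome genes in CDGC1 and from 2 to 10 in Dnd1-KD. Implied fragments were fewest for Bik, Bmf and Bcl2, whose least covered values rest on 12.1, 51.5 and 65.7 of them. For Bik the 12.1 lie behind the assembled entry in CDGC6 replicate 2, a library of 12.8 M implied fragments. The annotated Bik entry in CDGC6 replicate 1, a library of 13.1 M, was at 4.11 FPKM on 100 implied fragments. The cause of this difference was not tested.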
